A study of Mus musculus with 21 samples.

Results

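The NODAL signal was followed here through 10 genes: the ligand Nodal, its coreceptor Tdgf1, the secreted antagonists Lefty1, Lefty2 and Cer1, the receptors Acvr1b and Acvr2b, and the effectors Smad2, Smad3 and Foxh1. They were taken by symbol from a table of 33861 genes, in which each had 1 row, and are described in all 21 mouse RNA-seq samples. Of the samples, 12 were cultured pluripotent cells of 1000 cells each and 9 were single epiblasts, the embryonic tissue that gives rise to the body. FS cells, labelled formative stem cells and grown in a medium called A3XR, came from 2 lines. Line 1 was sampled at passage 10, at passage 11 and at passage 18, and for line 2 the passages were 12, 13 and 16. Both AF and AFX are labelled EpiSCs (epiblast stem cells), carry the name of the embryonic stem cell line E14, and were grown in media of the same names, AF and AFX, each at passages 14, 15 and 16. The labels do not spell out the media and give no genetic change. Epiblasts came from 3 embryos each at embryonic days 5.0 (embryos 1, 2 and 4), 5.5 and 6.0 (embryos 1, 2 and 3). Values of a group are listed in the order of its passages or embryos. Titles give the oldest group as E6.0, while a second label field has 6.5 for it, and E6.0 is used here. Passages of a line are not independent derivations, so the p-values of cultured groups measure the spread between passages, and in FS also between lines. This spread is pooled over all samples of a fit. Where FS is 1 group, the spread between its lines therefore also enters the comparison of AFX with AF. In fits of all 21 samples the spread between embryos enters as well. FS differed from AF and AFX in line as well as medium.

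Total counts per sample ran from 5827093 to 15916800. Levels are given as CPM, the count of a gene relative to the sample's total, with totals scaled by the trimmed mean of M-values (TMM) over all samples. A value of 3 counts, taken as the detection floor, was 0.171 to 0.589 CPM. The 8 epiblast markers summed to 1230 to 2890 CPM in the cultured samples and 3870 to 7220 CPM in the epiblasts. The 13 visceral endoderm markers summed to 336 to 960 CPM at E5.0, 53.7 to 96.5 at E5.5 and 31.6 to 35.6 at E6.0, against 63.9 to 97.5 in the cultured AF cells. In these bulk samples, fewer cells that express a gene and less RNA per cell cannot be told apart.

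NODAL is a secreted ligand of the TGF-beta family. It is bound by a complex of type I and type II activin receptors together with TDGF1 (also called CRIPTO), an EGF-CFC protein tethered to the cell surface. The receptors phosphorylate SMAD2 and SMAD3, which enter the nucleus with SMAD4 and act at target genes with partners such as FOXH1. Nodal, Lefty1 and Lefty2 are themselves targets, so that the pathway feeds forward through its ligand and back through its inhibitors. In the early mouse embryo the pathway sustains the epiblast and patterns it, and Cer1 and Lefty1 are known from the anterior visceral endoderm. Activin acts through the same receptors without TDGF1.

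The genes lie apart in the genome except for the Lefty pair (GRCm38 coordinates, GENCODE M21). Nodal is at chr10:61417972-61425338 on the plus strand, Tdgf1 at chr9:110939603-110946158 on the minus strand and Cer1 at chr4:82881751-82885148 on the minus strand. Lefty2 (chr1:180893108-180899103) and Lefty1 (chr1:180935022-180938400) lie on the plus strand with 35.9 kb between them. Acvr1b is at chr15:101174067-101213684 and Acvr2b at chr9:119402118-119434995, both on the plus strand. Smad3 is at chr9:63646767-63757994 and Foxh1 at chr15:76668225-76669948, both on the minus strand. All 10 are protein-coding, and none shares exon bases with another annotated gene.

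Promoter sequence of 6 of the 10 genes was in the RefSeq table (GRCm38.p6), those of Nodal, Tdgf1, Cer1, Acvr1b, Acvr2b and Smad3. The promoters of the 3 among them whose levels varied most are shown with that of Acvr1b, whose levels varied little, as the 250 bases before the RefSeq start, on the gene's strand, with each CG dinucleotide in capitals.
Nodal: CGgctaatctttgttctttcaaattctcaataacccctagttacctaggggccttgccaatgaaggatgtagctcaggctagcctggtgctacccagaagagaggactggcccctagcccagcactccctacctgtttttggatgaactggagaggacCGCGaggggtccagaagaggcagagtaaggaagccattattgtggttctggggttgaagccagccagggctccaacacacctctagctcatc
Tdgf1: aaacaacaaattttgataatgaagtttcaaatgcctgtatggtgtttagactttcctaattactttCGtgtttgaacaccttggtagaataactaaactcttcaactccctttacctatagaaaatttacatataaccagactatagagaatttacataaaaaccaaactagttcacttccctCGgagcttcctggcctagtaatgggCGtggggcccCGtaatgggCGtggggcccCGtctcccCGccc
Cer1: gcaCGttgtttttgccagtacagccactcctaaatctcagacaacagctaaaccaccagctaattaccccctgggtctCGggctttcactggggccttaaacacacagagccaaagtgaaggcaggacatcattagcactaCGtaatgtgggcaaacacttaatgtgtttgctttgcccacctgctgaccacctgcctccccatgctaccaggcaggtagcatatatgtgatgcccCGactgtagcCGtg
Acvr1b: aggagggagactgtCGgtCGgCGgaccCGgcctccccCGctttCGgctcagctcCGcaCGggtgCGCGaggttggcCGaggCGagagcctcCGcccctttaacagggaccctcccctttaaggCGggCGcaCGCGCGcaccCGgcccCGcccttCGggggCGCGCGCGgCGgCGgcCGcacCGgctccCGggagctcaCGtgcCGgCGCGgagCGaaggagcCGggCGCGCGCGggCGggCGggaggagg
These windows are chr10:61417722-61417971 (Nodal), chr9:110946159-110946408 (Tdgf1), chr4:82885152-82885401 (Cer1) and chr15:101173822-101174071 (Acvr1b). The Nodal window held 3 CG dinucleotides, that of Cer1 5 and that of Tdgf1 7, against a median of 6 over 32851 mouse promoters. The windows of Smad3, Acvr2b and Acvr1b held 22, 24 and 42. Among the 6 genes, those whose level stayed within 4.0-fold over the 21 samples had the CG-rich windows, which describes 6 genes and was not tested. Within the 300-base promoter entries (250 bases before the start and 50 after), none of the 6 held the FOXH1 motifs AATCCACA or AATACACA or the SMAD motifs GTCTAGAC or CAGACAG on either strand. In the same windows these motifs were found in 0.855%, 0.98%, 0.213% and 7.73% of all promoters. This says only that these letters are not in these windows.

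Lefty1 and Lefty2 are close copies, so that some reads cannot be placed on either gene. Of all 50-base windows of the annotated transcripts, 17.9% of those of Lefty1 and 12% of those of Lefty2 occurred in the other gene, so the split of counts between them is uncertain. Tdgf1 shared 8.86% of its windows with the pseudogene Tdgf1-ps1, which stayed between 0 and 4.24 CPM. Cer1 shared 1.66% with repeats in other genes and the other 6 members shared none.

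The receptors and effectors were present in every sample, whereas the ligand, the coreceptor and the antagonists ran over orders of magnitude. Over the 21 samples the highest level exceeded the lowest 1.55-fold for Smad2, 2.18-fold for Acvr2b, 2.29-fold for Foxh1, 3.69-fold for Acvr1b and 4.0-fold for Smad3. The same ratio was 94.6 for Nodal and 1460 for Tdgf1, the latter from a lowest sample under 3 counts. Lefty1, Lefty2 and Cer1 had at least 1 sample at 0. Where groups are said below not to overlap, the share of all genes doing the same was not counted.

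Nodal itself was low in FS cells and high in AF cells and in all epiblasts. In passage order FS line 1 had 5.95, 3.90 and 4.40 CPM, and FS line 2 had 0.803, 1.37 and 0.455 CPM. AF was at 26.0, 12.8 and 27.8 CPM at passages 14, 15 and 16, and AFX at 1.07, 0.750 and 9.39 CPM. All AF samples lay above all FS and AFX samples, and in AFX passage 16 was the high one. The embryos had 28.9, 26.3 and 24.5 CPM at E5.0, 18.7, 16 and 28.6 at E5.5, and 38.9, 43.0 and 31.5 at E6.0. From the top the group means ordered as E6.0, E5.0, AF, E5.5, FS line 1, AFX and FS line 2. Of these neighbours only E6.0 and E5.0, and E5.5 and FS line 1, did not overlap.

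Tdgf1, which encodes an EGF-CFC coreceptor of NODAL, had the widest span of the members that had counts in every sample. In FS line 1 it was at 3.57, 0.236 and 0.896 CPM and in line 2 at 0.803, 2.0 and 1.71 CPM. In AF it was at 91.7, 53.6 and 114 CPM, and in AFX at 5.77, 0.500 and 20.6 CPM, so no AFX sample reached the lowest AF sample. The epiblasts had 344, 163 and 211 CPM at E5.0, 62.1, 139 and 173 at E5.5, and 35.5, 73.7 and 44.2 at E6.0. Every E5.0 embryo lay above every E6.0 embryo, with E5.5 overlapping both.

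**Figure D1:**
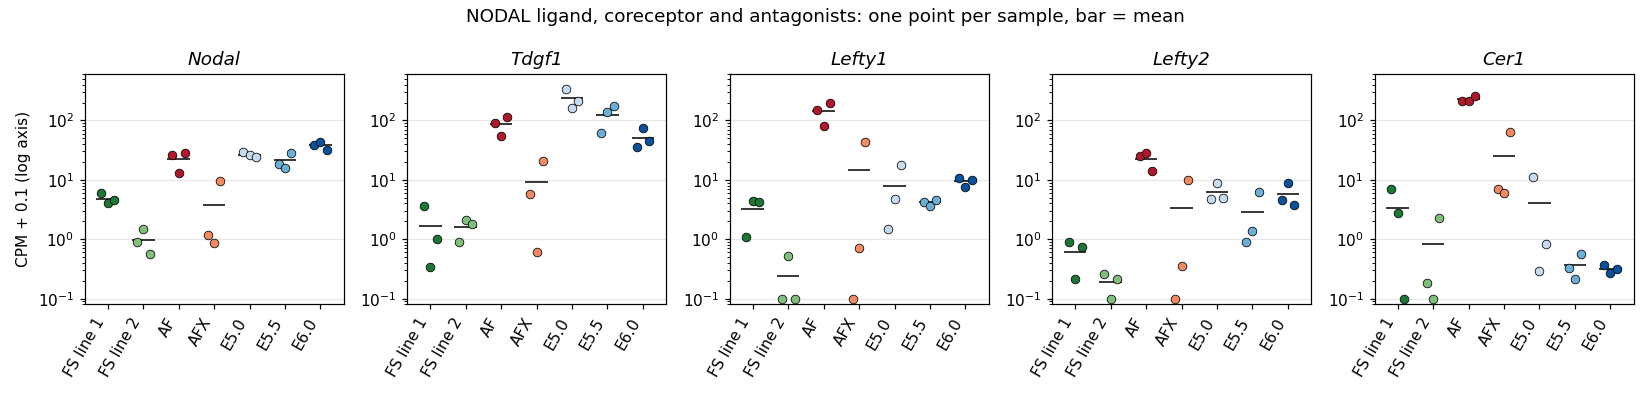
CPM of Nodal, Tdgf1, Lefty1, Lefty2 and Cer1 in each of the 21 samples, with 0.1 added, on a log axis; points are samples in the order given in the text and bars are group means. AF lies above both FS lines for all 5 genes, and AFX passage 16, the right-hand AFX point, lies above the other AFX passages.

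The antagonists peaked in AF cells. Lefty1, an extracellular inhibitor that binds NODAL and its coreceptor, was at 152, 80.7 and 200 CPM in AF (passages 14, 15 and 16) and at 0, 0.625 and 42.7 CPM in AFX. FS line 1 had 0.992, 4.37 and 4.07 CPM of Lefty1, and line 2 had 0, 0.422 and 0. The epiblasts had 1.37, 4.71 and 17.6 CPM of Lefty1 at E5.0, 4.18, 3.55 and 4.57 at E5.5, and 10.6, 7.44 and 9.90 at E6.0. AF overlapped no other group, and AFX reached epiblast levels only through passage 16.

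Lefty2, the second gene of the pair, was at 25.4, 28.5 and 14.2 CPM in AF and at 0, 0.250 and 9.72 in AFX. In FS it was at 0.794, 0.118 and 0.651 CPM in line 1 and 0.161, 0 and 0.114 in line 2, at or near the detection floor. The epiblasts had 4.72, 8.63 and 4.92 CPM at E5.0, 0.791, 1.26 and 6.16 at E5.5, and 4.46, 8.66 and 3.73 at E6.0. With the reservation about shared sequence, Lefty1 made up 73.9% to 93.4% of the counts of the pair in the 3 AF samples. At E5.0 its share was 22.4% (95% exact interval 11.8% to 36.6%) in embryo 1, 35.3% (24.1% to 47.8%) in embryo 2 and 78.2% (71.6% to 83.9%) in embryo 4. Lefty2 thus had more counts than Lefty1 in embryos 1 and 2 and fewer in embryo 4. The shares are of counts, not scaled to exon length, which is 2611 bases for Lefty2 and 1758 for Lefty1. In the later epiblasts the share of Lefty1 was 42.6% (33.4% to 52.2%) in E5.5 embryo 3, 46.2% (38.9% to 53.7%) in E6.0 embryo 2 and 70.4% to 84.1% in the other 4. These intervals cover counting error only, and E5.0 embryos differed beyond it over all genes too (chi-square per degree of freedom 21.9 to 23.5).

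Cer1, a secreted protein that binds NODAL outside the cell, was high in AF, lower in AFX and near the floor in the later epiblasts. AF was at 210, 209 and 258 CPM, AFX at 6.78, 5.87 and 63.8 CPM. FS line 1 had 7.05, 2.72 and 0 CPM and line 2 had 0.0803, 0 and 2.16 CPM. The epiblasts were at 0.226, 0.115 and 0.466 CPM at E5.5 and 0.263, 0.173 and 0.213 at E6.0, near the floor. At E5.0 embryo 1 had 11.2 CPM and embryos 2 and 4 had 0.196 and 0.719. Over the 3 samples of each group AF had 6863 Cer1 counts and E6.0 had 6, a depth-scaled ratio of 1080 (95% counting interval 496 to 2940). AFX had 916 counts, a ratio to E6.0 of 125 (57.1 to 341), and 768 of the 916 came from passage 16. These intervals cover counting error only.

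Per kilobase of exon, the mean levels of Cer1 and Lefty1 lay above that of Nodal in AF and below it at E6.0, and Lefty2 lay below Nodal in both. In AF, Cer1 had 130 ± 16.1 CPM per kb (SD, n = 3) and Lefty1 81.9 ± 34.0, against 10.6 ± 3.91 for Nodal and 8.69 ± 2.88 for Lefty2. At E6.0, Nodal had 18 ± 2.78 CPM per kb (n = 3), against 5.31 ± 0.951 for Lefty1, 2.15 ± 1.02 for Lefty2 and 0.124 ± 0.0258 for Cer1. Tdgf1 had 91.3 ± 35.8 CPM per kb at E5.0 and 33.0 ± 11.6 in AF, above Nodal in both, and 0.586 ± 0.452 in FS (n = 6), where Nodal had 1.34 ± 1.07. Foxh1 was the member with the most reads per kb in FS, at 23.9 ± 1.81.

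The type I receptor Acvr1b (ALK4) was highest in AFX, at 47.9, 52.6 and 44.8 CPM. FS ranged from 33.6 to 43.3 CPM over 6 samples (median 34.98), and AF was at 31.9, 26.2 and 37.5. The epiblasts had 28.3, 22.4 and 14.3 CPM at E5.0, 28.9, 23.7 and 35.0 at E5.5, and 23.8, 28.0 and 30.2 at E6.0. The AFX samples overlapped no other group.

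The type II receptor Acvr2b was highest in the later epiblasts, at 83.8, 90.2 and 89.2 CPM at E6.0 and 75.1, 78.7 and 74.0 at E5.5, against 41.5, 67.3 and 50.1 at E5.0. FS spanned 49.1 to 64.9 CPM, AF was at 58.5, 65.3 and 49.8, and AFX at 63.1, 74.4 and 58.6. E6.0 stood above every other sample.

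Smad2 and Smad3, which carry the signal, behaved unlike each other. Smad2, on chromosome 18 (76241580 to 76310963, plus strand), lay between 27.2 and 42.1 CPM in all 21 samples, with group means from 31.8 ± 3.94 (AFX, n = 3) to 37.6 ± 4.98 (AF, n = 3). Smad3 was at 48.2, 51.7 and 38.3 CPM in FS line 1 and 72.0, 49.7 and 56.9 in line 2. AF had 38.4, 43.8 and 30.0 CPM of Smad3, and AFX had 55.2, 47.0 and 33.1. Every epiblast lay lower, at 21.8, 21.6 and 18 CPM (E5.0), 23.5, 23.3 and 22.5 (E5.5) and 26.0, 24.8 and 19.9 (E6.0). Cultured and epiblast values of Smad3 thus did not overlap, and how many of all genes do the same was not counted.

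Foxh1, the DNA-binding partner of the SMADs, was at 34.2, 28.5 and 31.3 CPM in FS line 1, 35.3, 32.9 and 34.0 in line 2, and 35.6, 33.7 and 36.4 in AF. AFX was higher, at 48.8, 65.1 and 48.1 CPM. The epiblasts had 43.6, 49.6 and 39.4 CPM at E5.0, 43.9, 43.2 and 51.7 at E5.5, and 50.7, 44.1 and 51.8 at E6.0. FS and AF lay below all epiblasts and all AFX samples.

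**Figure D2:**
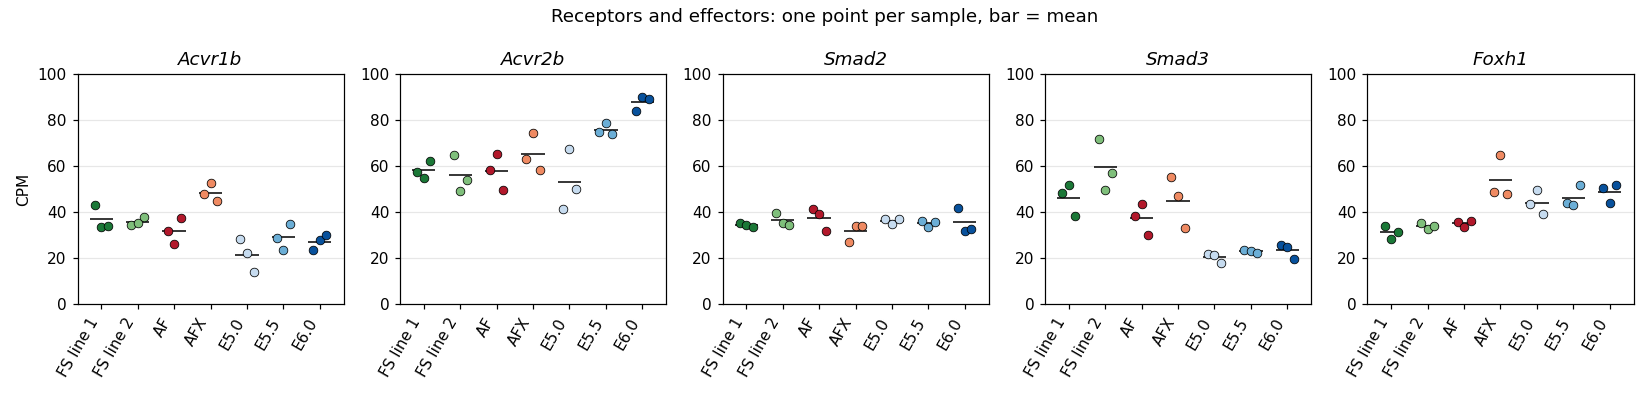
CPM of the receptors Acvr1b and Acvr2b and of Smad2, Smad3 and Foxh1 in each of the 21 samples on a linear axis from 0; points are samples and bars are group means. Smad2 keeps within 27.2 to 42.1 CPM, Smad3 is higher in all cultured samples than in any epiblast, and Foxh1 and Acvr1b have their highest group means in AFX.

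FS against AF compares formative with epiblast stem cells. The ligand, the coreceptor and all 3 antagonists were lower in FS, and no receptor or effector passed the test. These 5 of 10 members passed an adjusted p of 0.05 (edgeR quasi-likelihood test, two-sided, Benjamini-Hochberg over all genes), where 19.5% of 16052 genes passed, 8.86% higher and 10.6% lower in FS. The log2 difference was -3.02 ± 0.81 (SE) for Nodal (edgeR adjusted p = 0.0231) and -5.82 ± 0.77 for Tdgf1 (0.000548). It was -6.57 ± 1.41 for Lefty1 (edgeR adjusted p = 0.0103), -6.19 ± 1.15 for Lefty2 (0.00348) and -6.87 ± 1.07 for Cer1 (0.0019). The fitted values for the Lefty genes and Cer1 rest on FS samples at or near 0, and they moved to -7.81 for Cer1 without FS passage 10 and to -7.24 for Lefty1 without FS passage 18. The median over the 10 members was -1.57 and over all genes 0.02. Of the other members Smad3 was at 0.49 ± 0.19 (edgeR adjusted p = 0.095), and it passed, higher in FS, with FS line 2 alone (0.65, 0.0449) and, at the edge of the threshold, without FS passage 18 (0.56).
The Nodal call was lost without AF passage 14 (edgeR adjusted p = 0.0625), without AF passage 16 (0.0771) with FS line 1 alone (0.0825, log2 difference -2.23) and without the filter on low counts (0.0613, log2 difference -3.02). Lefty1 was at -5.52 (0.056) with FS line 1 alone. The DESeq2 Wald test called 4 of the 10 members, all lower in FS. The FS line 1 comparison keeps 3 FS samples, and its Nodal values lay closer to AF than those of line 2.

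Markers of other cell types moved with these genes. The 5 anterior visceral endoderm markers Hhex, Dkk1, Lhx1, Foxa2 and Sfrp5 were all lower in FS, summing to 2.43 to 19.2 CPM there and 123 to 327 in AF. The 13 visceral endoderm markers summed to 7.98 to 13 CPM in FS and 63.9 to 97.5 in AF, where Afp and Apoa4 were at 0 in every sample. In FS Afp, Ttr, Apoa4, Apob and Hnf4a were at 0. The 8 feeder fibroblast markers summed to 15.4 to 44.9 CPM in FS and 217 to 259 in AF, and 6 of 7 tested were lower in FS. The 8 extraembryonic ectoderm markers summed to 35.0 to 57.6 CPM in FS and 77.1 to 164 in AF, with 3 of 5 tested lower in FS. Of the naive pluripotency markers all 6 tested were lower in FS, and the list of 8 summed to 6.85 to 14.2 CPM there and 44.5 to 69.2 in AF. The 8 epiblast markers summed higher in FS, at 1940 to 2890 CPM against 1230 to 1810 in AF, with 3 of 8 tested higher and 1 lower in FS. The part of these lists in the differences of Nodal, Tdgf1, Lefty1, Lefty2 and Cer1 was not tested.

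In FS against AFX the 1 member of 10 to pass was Foxh1, lower in FS by a log2 difference of -0.73 ± 0.12 (edgeR adjusted p = 0.00099), and it passed in every fit with a library left out. The background was 8.70% of 16052 genes, 3.78% higher and 4.92% lower in FS, which is near the members' share. Whether the members' differences from AFX and from AF are unlike was not tested. Tdgf1 was at -2.58 ± 0.80 (edgeR adjusted p = 0.0788), Cer1 at -3.74 ± 1.06 (0.0624) and Acvr1b at -0.42 ± 0.13 (0.0535). Nodal was at -0.47 (edgeR adjusted p = 0.805), Lefty1 at -3.27 (0.218) and Lefty2 at -3.44 (0.116), and all 3 signs turned without AFX passage 16, to 1.53, 2.68 and 1.61 (0.446, 0.602 and 0.588). In the same fit, without AFX passage 16, Tdgf1 was at -1.17 (edgeR adjusted p = 0.487) and Cer1 at -1.73 (0.452). Calls were gained without single libraries: Acvr1b (-0.48, edgeR adjusted p = 0.0293) and Cer1 (-4.67, 0.0349) without FS passage 10, Lefty2 (-4.04, 0.0299) without AFX passage 14 and Tdgf1 (-3.09, 0.0162) without AFX passage 15. Tdgf1 (-2.55, adjusted p = 0.0473) and Acvr1b (-0.41, 0.0234) also passed in the DESeq2 Wald test. The median over the 10 members was -0.60 and over all genes 0.00397. Feeder fibroblast markers summed to 15.4 to 44.9 CPM in FS and 29.6 to 52.3 in AFX, with 2 of 7 tested lower and none higher in FS. Visceral endoderm markers summed to 7.98 to 13 CPM in FS and 13.6 to 28.0 in AFX, with 1 of 5 tested lower and none higher. None of the 5 anterior visceral endoderm markers passed. The part of these lists in the members' differences was not tested.

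AFX and AF carry the same line name and differ in medium. In AFX the coreceptor Tdgf1 was lower and the receptor Acvr1b and the partner Foxh1 were higher, 3 of 10 members against a background of 8.73% of 16052 genes (4.30% higher and 4.42% lower in AFX). The log2 difference was -3.24 ± 0.87 for Tdgf1 (edgeR adjusted p = 0.0445), 0.60 ± 0.15 for Acvr1b (0.0205) and 0.61 ± 0.14 for Foxh1 (0.0124). Nodal at -2.55 ± 1.00 (edgeR adjusted p = 0.159), Lefty1 at -3.30 ± 1.51 (0.246), Lefty2 at -2.75 ± 1.18 (0.205) and Cer1 at -3.14 ± 1.14 (0.138) did not pass, although for each gene no AFX sample reached the lowest AF sample. The median over the 10 members was -1.40 and over all genes 0.01. Markers of other cell types moved with Tdgf1 here too. Feeder fibroblast markers summed to 29.6 to 52.3 CPM in AFX and 217 to 259 in AF, with 5 of 7 tested lower and 1 higher in AFX. Visceral endoderm markers summed to 13.6 to 28.0 CPM in AFX and 63.9 to 97.5 in AF, with 3 of 5 tested lower, Afp and Apoa4 at 0 in both and Hnf4a at 0 in AFX. Anterior visceral endoderm markers summed to 17.8 to 60.5 CPM in AFX and 123 to 327 in AF, with 2 of 5 lower. Naive pluripotency markers summed to 10.1 to 19.9 CPM in AFX and 44.5 to 69.2 in AF, with 3 of 6 tested lower, and 2 of 5 extraembryonic ectoderm markers tested were lower (46.0 to 86.0 against 77.1 to 164 CPM). The 8 epiblast markers summed higher in AFX, at 1910 to 2350 CPM against 1230 to 1810 in AF, with 2 of 8 tested higher and none lower in AFX. The part of these lists in the differences between AFX and AF was not tested.

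Single libraries changed these calls. Without AFX passage 16, 7 members passed: Nodal at -4.55 (edgeR adjusted p = 0.0257), Tdgf1 at -4.65 (0.0141), Lefty1 at -9.25 (0.0208), Lefty2 at -7.80 (0.00152), Cer1 at -5.15 (0.0397), and Acvr1b and Foxh1 as before. The Lefty values are fitted against 0 to 5 counts a sample and depend on the fit's prior count. In AFX passage 16 the anterior visceral endoderm markers summed to 60.5 CPM against 17.8 and 21.9 in passages 14 and 15, and the visceral endoderm markers to 28.0 against 13.6 and 15.1. Feeder fibroblast markers were at 33.9 against 52.3 and 29.6. The part of these cell types in the passage 16 values was not tested.
In the other direction, the Tdgf1 call was lost in the fits without any 1 of AF passages 14, 15 and 16 and AFX passages 14 and 15 (edgeR adjusted p from 0.0571 to 0.145). The Acvr1b call was lost without AF passage 14 or 15 or AFX passage 14 or 15 (0.052 to 0.092), and that of Foxh1 without AFX passage 15 (0.0734), where 0 of 10 members passed. Without the filter on low counts Tdgf1 did not pass (-3.25, edgeR adjusted p = 0.0961). With AFX and AF alone in the fit Acvr1b did not (0.60, edgeR adjusted p = 0.0579) and Cer1 did (-3.14, 0.042), and with the FS lines as separate groups Nodal did (-2.54, 0.042).

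**Figure D3:**
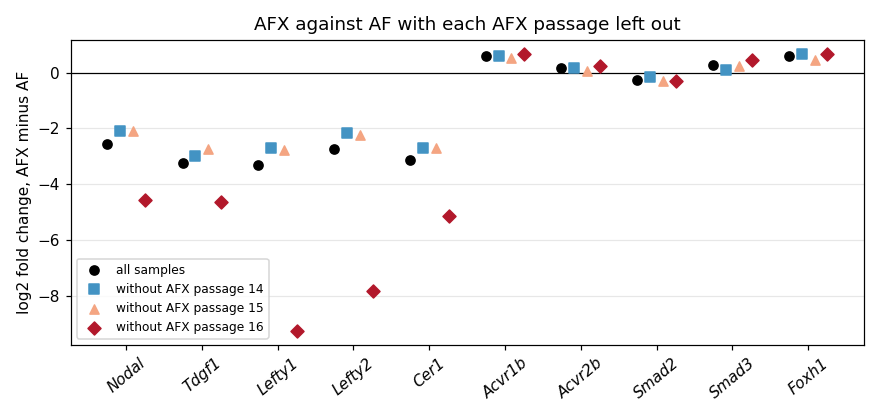
Log2 fold change of AFX minus AF for the 10 genes with all samples and with each AFX passage left out. Without passage 16 the values of Nodal, Tdgf1, Lefty1, Lefty2 and Cer1 move to -4.55, -4.65, -9.25, -7.80 and -5.15, while the receptors and effectors stay within 1 of 0.

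The 2 FS lines were compared for the same genes. In line 2 Nodal was lower in every passage than in every passage of line 1, with means of 0.877 ± 0.462 and 4.75 ± 1.07 CPM (SD, n = 3 each), but its log2 difference of -2.53 ± 0.85 did not pass (edgeR adjusted p = 0.142). No member passed, where 3.85% of 16052 genes did, 2.65% higher and 1.20% lower in line 2, and 1 of 10 had an unadjusted p under 0.05. With these 2 groups alone in the fit Nodal (-2.51, edgeR adjusted p = 0.00447) and Lefty1 (-4.76, 0.0181) passed. DESeq2 called none. Lefty1 had 97 counts in line 1 and 4 in line 2, a depth-scaled ratio of 31.1 (95% counting interval 11.8 to 116). Lefty2 had 17 and 4, a ratio of 5.45 (1.78 to 22.3). Both intervals cover counting error only and not the spread between passages. In the test of line 2 against line 1, Lefty1 was at -4.81 (edgeR adjusted p = 0.457) and Lefty2 at -2.33 (0.651). Tdgf1, at 1.57 ± 1.77 and 1.5 ± 0.625 CPM, was low in both lines.

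Few members passed the test between epiblast stages. From E5.0 to E5.5 no member of 9 tested passed, where 6.82% of 14228 genes did (3.07% higher and 3.75% lower at E5.5). The edgeR test gave 1 member an unadjusted p under 0.05, Acvr2b at 0.51 ± 0.16 (adjusted p = 0.0713), and the DESeq2 Wald test called it (0.0394). Acvr2b also passed without E5.0 embryo 2 (0.72, edgeR adjusted p = 0.00637) and Lefty2 without E5.5 embryo 3 (-2.54, 0.0403). Cer1 was removed by the count filter in the epiblast fits. Its 97 counts at E5.0 against 8 at E5.5 gave a depth-scaled ratio of 16 (95% counting interval 7.79 to 38.0), and 90 of the 97 came from embryo 1. That embryo had visceral endoderm markers at 788 CPM, between the 336 and 960 CPM of the other E5.0 embryos.

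From E5.5 to E6.0 Nodal rose, by 0.83 ± 0.22 on the log2 scale (edgeR adjusted p = 0.0498), the only 1 of 9 members to pass, where 4.43% of 14228 genes did (1.89% higher and 2.54% lower at E6.0). All E6.0 embryos lay above all E5.5 embryos for Nodal. The call was lost when E5.5 embryo 1 or 2 or any E6.0 embryo was left out (log2 difference 0.67 to 0.95, edgeR adjusted p from 0.0697 to 0.225), and held without E5.5 embryo 3 (1.12, 0.0173). With E5.5 and E6.0 alone in the fit Lefty1 also passed (1.17, edgeR adjusted p = 0.0262).

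Between E5.0 and E6.0 the coreceptor fell and the type II receptor rose, 2 of 9 members against a background of 21.8% of 14228 genes (10.2% higher and 11.6% lower at E6.0), which is near the members' share. Tdgf1 fell by 2.24 ± 0.49 on the log2 scale (edgeR adjusted p = 0.0188) and Acvr2b rose by 0.72 ± 0.16 (0.00579). The Tdgf1 call was lost without E6.0 embryo 1 (edgeR adjusted p = 0.0712) or E6.0 embryo 3 (0.0836). Lefty1, at 0.21 with all embryos, passed at 1.67 (edgeR adjusted p = 0.0342) without E5.0 embryo 4, whose 17.6 CPM stood above the other E5.0 embryos. Over the same interval the visceral endoderm markers fell from 336 to 960 CPM to 31.6 to 35.6 CPM, with 10 of 11 tested past the threshold, and their part in the Tdgf1 difference was not tested.

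Each cultured group was set beside an epiblast stage, in a fit of all samples. FS against E5.5 differed in 6 members, against a background of 43.8% of 16614 genes (23.0% higher and 20.8% lower in FS). Nodal at -2.95 ± 0.65 (edgeR adjusted p = 0.00168), Tdgf1 at -6.33 ± 0.68 (2.67e-06), Lefty2 at -3.15 ± 1.11 (0.0288), Acvr2b at -0.41 ± 0.13 (0.0122) and Foxh1 at -0.50 ± 0.12 (0.00177) were lower in FS. Smad3 was higher, by 1.20 ± 0.19 (edgeR adjusted p = 2.23e-05). Lefty1 at -1.41 (0.431) and Cer1 at 2.73 (0.282) did not pass. The call of Lefty2 was lost without FS passage 12, 13 or 16 (edgeR adjusted p from 0.0505 to 0.058), without E5.5 embryo 3 (0.349, log2 difference -1.71) and with FS line 1 alone (-2.33, 0.199) and without the filter on low counts (0.0645), and Acvr2b was at 0.057 with FS line 1 alone. With FS and E5.5 alone in the fit, 9 members were tested and 5 passed, 1 higher and 4 lower in FS. The FS samples are those of the comparison with AF. The median over the members was -0.45, against 0.08 for all genes. The visceral endoderm markers moved with Nodal, Tdgf1 and Lefty2: they summed to 7.98 to 13 CPM in FS and 53.7 to 96.5 at E5.5, with 10 of 12 tested lower in FS and a median log2 difference of -5.07. Of the 8 epiblast markers 5 were lower and 1 higher in FS. The part of these lists in the members' differences was not tested.

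AF against E6.0 differed in 5 members, where 35.2% of 16614 genes did (18.1% higher and 17.1% lower in AF). Lefty1 (3.95 ± 1.41, edgeR adjusted p = 0.0406), Cer1 (0.000487, with the count ratio given above) and Smad3 (0.67 ± 0.21, 0.0147) were higher in AF. Acvr2b (-0.60 ± 0.15, edgeR adjusted p = 0.00351) and Foxh1 (-0.47 ± 0.14, 0.012) were lower. Nodal at -0.77 (edgeR adjusted p = 0.445) and Tdgf1 at 0.75 (0.41) did not pass. The Lefty1 call was lost in each of the 6 fits with a library left out (edgeR adjusted p from 0.0563 to 0.12), without the filter on low counts (0.074) and at 0.052 in the DESeq2 Wald test. With AF and E6.0 alone in the fit Nodal (-0.75, edgeR adjusted p = 0.0452) and Lefty2 (2.02, 0.00196) passed. Smad3 was lost without AF passage 15 (edgeR adjusted p = 0.0833) or E6.0 embryo 3 (0.0799), and Foxh1 without E6.0 embryo 3 (0.0541). The median over the members was 0.44, against 0.08 for all genes. The anterior visceral endoderm markers, at 123 to 327 CPM in AF and 5.32 to 20 at E6.0, moved with Lefty1 and Cer1, with 4 of 5 higher in AF. So did the feeder fibroblast markers, at 217 to 259 CPM in AF and 9.45 to 14.3 at E6.0, with 5 of 7 tested higher in AF and Lum and Postn at 0 at E6.0. Visceral endoderm markers summed to 63.9 to 97.5 CPM in AF and 31.6 to 35.6 at E6.0, with 3 of 12 tested higher and 1 lower in AF. Of the extraembryonic ectoderm markers 3 of 7 tested were higher in AF and none lower, with overlapping sums (77.1 to 164 and 74.3 to 196 CPM). Of the 8 epiblast markers 6 were lower in AF and none was higher. The part of these lists in the differences was not tested.

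AFX against E6.0 differed in 6 members, where 32.8% of 16614 genes did (17.1% higher and 15.8% lower in AFX). Nodal (-3.31 ± 0.82, edgeR adjusted p = 0.00564), Tdgf1 (-2.47 ± 0.73, 0.0168) and Acvr2b (-0.43 ± 0.15, 0.0319) were lower in AFX. Acvr1b (0.82 ± 0.20, edgeR adjusted p = 0.00305), Smad3 (0.94 ± 0.21, 0.00141) and Cer1 (0.00864) were higher. Without AFX passage 16 the log2 difference moved to -5.31 for Nodal and -3.85 for Tdgf1, both still past the threshold. In that fit Cer1 was at 4.84, from 6.85, and did not pass (edgeR adjusted p = 0.0567), and Lefty1 (-5.27, 0.042, from 0.65) and Lefty2 (-5.76, 0.00183, from -0.74) did. Tdgf1 was lost without AFX passage 14 (edgeR adjusted p = 0.0737) or E6.0 embryo 2 (0.067) and with AFX and E6.0 alone in the fit (0.123). Acvr2b was lost without AFX passage 14 or 16 or E6.0 embryo 2 or 3 (0.0858 to 0.129), and among genes averaging 5 CPM or more (0.0697). The median over the members was -0.01, against 0.09 for all genes. Feeder fibroblast markers summed to 29.6 to 52.3 CPM in AFX and 9.45 to 14.3 at E6.0, with 3 of 7 tested higher and 1 lower in AFX. Visceral endoderm markers summed to 13.6 to 28.0 CPM in AFX and 31.6 to 35.6 at E6.0, with 5 of 12 tested lower in AFX. Of the 5 anterior visceral endoderm markers, at 17.8 to 60.5 CPM in AFX and 5.32 to 20 at E6.0, none passed the test (edgeR adjusted p from 0.0574 to 0.44), and 3 had an unadjusted p under 0.05. Of the 8 epiblast markers 5 were lower in AFX and none was higher. The part of these lists in the members' differences was not tested. Smad2 passed in none of the 10 comparisons, with log2 differences from -0.25 to 0.16.

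**Figure D4:**
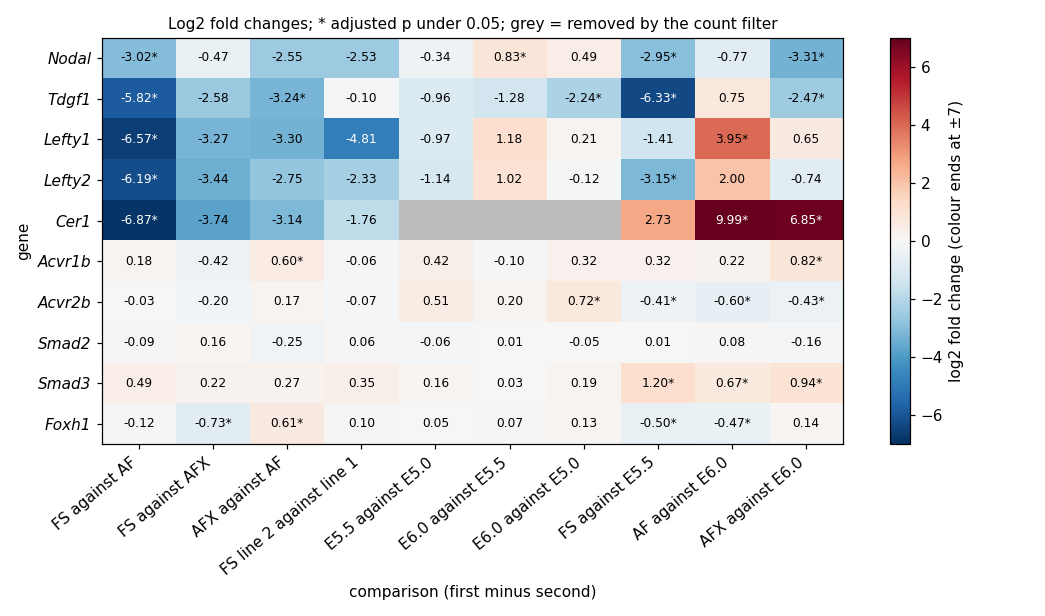
Log2 fold changes of the 10 genes (rows) in the 10 comparisons (columns), first group minus second; an asterisk marks an edgeR adjusted p under 0.05 and grey cells are Cer1 in the epiblast fits, where the count filter removed it. FS against AF holds 5 marked cells, all in the upper rows, and Smad2 has none.

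The rest of the pathway was read from 6 lists of 44 genes, 42 of which had a row. Among other ligands, Tgfb1 (-2.67 ± 0.41, edgeR adjusted p = 0.000408) and Tgfb2 (-3.43 ± 0.66, 0.00454) were lower in FS than in AF, 2 of 4 tested, where 10.6% of 16052 genes were lower in FS. Gdf3, which can signal through the same receptors and TDGF1, separated the FS lines: 0.198, 0.590 and 0.0814 CPM in line 1 and 6.43, 5.59 and 6.08 in line 2 (4.43 ± 0.44, edgeR adjusted p = 1.95e-05). Gdf3 also fell from E5.5 to E6.0, by 2.78 ± 0.30 on the log2 scale (edgeR adjusted p = 9.1e-05), while Nodal rose. Of the convertases that can cleave the NODAL precursor, Furin was lower in FS than in AF (-0.95 ± 0.18, edgeR adjusted p = 0.00178), and Pcsk6 was lower in FS than at E5.5 (-1.61 ± 0.45, 0.00568).

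Cfc1, the other EGF-CFC coreceptor gene, followed Tdgf1 among cultured cells. It was at 6.41, 12.1 and 9.18 CPM in AF, 1.14, 0.875 and 1.08 in AFX and between 0 and 0.298 in FS. It was lower in FS than in AF (edgeR adjusted p = 3.29e-06), with no fold given because the FS samples were at or near the detection floor, and AFX against AF was at -3.14 ± 0.56 (0.00367). In the epiblasts Cfc1 was between 0 and 2.11 CPM. Of 5 receptor and coreceptor genes tested, Cfc1 and Tgfbr2 (-1.91 ± 0.31, edgeR adjusted p = 0.000617) were the 2 lower in FS than in AF, where 10.6% of all genes were, and none was higher. Among 5 antagonists beyond the members, Fstl3 was lower in FS than in AF (-1.67 ± 0.49, edgeR adjusted p = 0.0266). Bambi, a decoy receptor at the membrane, was highest in AFX at 54.9, 53.4 and 48.8 CPM (1.78 ± 0.39 against AF, edgeR adjusted p = 0.0136). Fst, which traps activin, rose from E5.5 to E6.0 by 3.33 ± 0.51 (0.00314).

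The 3 regulators named here, which SMAD signalling is known to induce and which limit it, were lower in FS than in AF out of 12 tested, where 10.6% of all genes were lower, and none was higher. Over the 12 the median log2 difference was -0.15, against 0.02 for all genes. Smad7, an inhibitory SMAD, was at 83.0, 64.5 and 78.5 CPM in AF, 11.2, 8.75 and 39.7 in AFX, and 6.20 to 32.8 in FS (median 13.1). Its log2 difference was -2.19 ± 0.54 in FS against AF (edgeR adjusted p = 0.0165) and -3.03 ± 0.45 in FS against E5.5 (6.03e-05). Skil was at -0.82 ± 0.18 (edgeR adjusted p = 0.00466) and -1.63 ± 0.15 (1.46e-08) in the same comparisons. Of the 12 regulators 6 were lower in FS than at E5.5, where 20.8% of 16614 genes were. Pmepa1 was at -1.76 ± 0.49 in FS against AF (0.0274). As for Nodal, AFX passage 16 was the high AFX sample for Smad7, Skil (144 CPM against 86.9 and 84.2) and Pmepa1 (30.7 against 5.84 and 6.5).

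**Figure D5:**
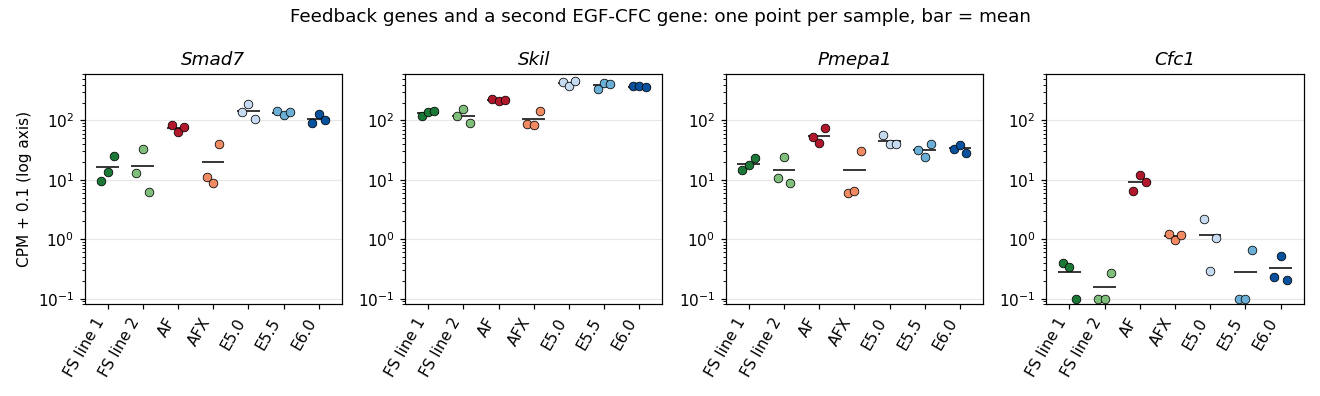
CPM of Smad7, Skil, Pmepa1 and Cfc1 in each of the 21 samples, with 0.1 added, on a log axis; points are samples and bars are group means. Smad7 is at 64.5 to 83.0 CPM in AF and 6.20 to 32.8 in FS, and Cfc1 is at 6.41 to 12.1 CPM in AF and at most 2.11 elsewhere.

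Of 11 lineage genes known to respond to NODAL, 7 were lower in FS than in AF, where 10.6% of 16052 genes were, and none was higher, with a median log2 difference of -3.42 (all genes, 0.02). They were Gsc, Lhx1, Mixl1, Eomes, Foxa2, Hhex and Sox17, several of which are also among the endoderm markers above. Mixl1 was at 13.7, 0.615 and 30.4 CPM in AF and 0 to 0.794 in FS, so AF passage 15 lay within its FS range. Gsc, an organiser gene, was at 28.1, 17.4 and 45.9 CPM in AF and 0 to 1.59 in FS (-5.36 ± 0.90, edgeR adjusted p = 0.00196). In the epiblasts Gsc fell from E5.0 to E5.5 (-2.41 ± 0.57, edgeR adjusted p = 0.0226) and rose to E6.0 (3.79 ± 0.57, 0.00162). Lhx1 fell from E5.0 to E5.5 (-3.54 ± 0.54, 0.00212). These were the 2 of 9 tested lower at E5.5, where 3.75% of 14228 genes were. Gsc was the 1 of 9 higher at E6.0 than at E5.5, where 1.89% were. From E5.0 to E5.5 visceral endoderm markers fell too, 8 of 11 tested. Anterior visceral endoderm markers, which include Lhx1, summed to 22.7 to 37.4 CPM at E5.0 and 4.48 to 6.78 at E5.5. The part of these cell types was not tested. In FS against E5.5 none of the 11 passed the edgeR test, where 43.8% of 16614 genes did, and 1 had an unadjusted p under 0.05 (Wnt3, at 2.01 ± 0.87).

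The genes whose pattern over the 21 samples was most like each of 4 members were found among 10570 genes with a mean of at least 5 CPM, by the root-mean-square difference of centred log2 CPM. The samples share lines, passages and stages, and the measure is given as a description. For Nodal these were Arhgef5 (0.735), Smad7 (0.878) and Bspry (0.879). For Tdgf1 they were Rbm47 (0.985), Platr10 (1.16) and Trim25 (1.17). Lefty1 was most like Lefty2 (1.48), with which it shares sequence, then Gsc (1.55) and Trim67 (1.58), and Cer1 was most like Lhx1 (1.87), Bmp2 (1.93) and Pkd1l1 (1.99), all at a wider distance than the neighbours of Nodal and Tdgf1. Arhgef5, the nearest to Nodal, had means of 4.13 ± 2.1 CPM in FS (SD, n = 6), 25.2 ± 2.38 in AF, 4.81 ± 2.82 in AFX, 31.8 ± 9.81 at E5.0, 22.1 ± 5.35 at E5.5 and 36.9 ± 9.25 at E6.0 (n = 3 each).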

How the data were processed

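Per the submitters' processing notes, reads were handled with Trim Galore, TopHat2 2.1.0 and featureCounts 1.5.0 on mm10. The gene annotation and strand setting are not given in the sources used here. RNA was isolated with the PicoPure kit, per the labels' protocols. The authors deposited raw counts per gene (whole numbers, 33861 genes, 21 samples), and depth ran from 5827093 to 15916800 counts. Members and gene lists were chosen with earlier results of these data known.

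Counts were tested in R 4.3.3 with edgeR 4.0.16 (filterByExpr, TMM, robust quasi-likelihood fit, two-sided F-test, Benjamini-Hochberg over all genes, threshold 0.05). Cultured comparisons used 12 samples (FS as 1 group, or split by line for the line comparison), stage comparisons 9 epiblasts, and the others all 21. Python 3.11.15, pandas 2.3.3, scipy 1.17.1 and matplotlib 3.10.9 were used for levels, intervals and figures. Every member is named. Of other pathway genes only those of 6 lists are named, chosen from those past the threshold, plus the 3 genes most like each of Nodal, Tdgf1, Lefty1 and Cer1 (log2 CPM with a prior count of 2). The alternatives tried were a DESeq2 1.42.0 Wald test, edgeR with size factors from DESeq2, fits without a count filter or with genes averaging 5 CPM or more, fits of only the groups compared, FS lines used singly or as separate groups, samples left out one at a time, a replicate block and, for levels, plain totals. Replicates within a group or line differed beyond counting error (chi-square per degree of freedom 4.84 to 29.0 over 21 pairs). Tested on simulated data with 200 changed genes of at least 5 CPM, the fit recovered 76% of 2-fold and 96% of 4-fold changes for FS against AF (10 false of 182 calls, 15894 genes), 54% and 96% for AFX against AF (6 of 156, 15920 genes), 50% and 89% for E6.0 against E5.0 (6 of 145, 14026 genes) and 56% and 93% for AF against E6.0 (7 of 156, 16451 genes).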

Additional observations from a re-analysis of the deposited data

Results flagged for a closer look

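Among 39 genes checked for a sample apart from the other 5 in the 6 FS samples, 6 were found. The rule flags about 1 in 20 groups of independent values with a normal spread. CPM of samples from 2 lines need not be such values, and genes of the same sample are not independent. Among the NODAL members Smad2 was at 39.8 CPM in FS line 2 passage 12, against 33.8 to 35.5 in the others. FS line 1 passage 11 was high for Tgfb2, at 14.2 CPM against 0.844 to 5.30, and for Furin, at 27.4 CPM against 19.0 to 21.8. FS line 1 passage 10 was high for Fst, at 61.7 CPM against 0.163 to 6.97, for Lhx1, at 5.76 CPM against 0.0803 to 1.42, and for T, at 30.5 CPM against 0 to 3.42.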

How the results depend on the processing

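Counts of members past the threshold moved by more than 1.5 times under these alternatives. FS against AF gave 3 with FS line 1 alone, in place of 5. FS against AFX, in place of 1, gave 2 with a mean of at least 5 CPM, 3 with the DESeq2 Wald test, 2 with the 2 groups alone, 3 with the FS lines as separate groups and 2 with FS line 2 alone. FS line 2 against line 1, in place of 0, gave 4 without a count filter and 2 with the 2 groups alone. E5.5 against E5.0, in place of 0, gave 2 without a filter and 1 with the DESeq2 Wald test. E6.0 against E5.5 gave 2 with the 2 groups alone in place of 1, and AF against E6.0 gave 3 with the DESeq2 Wald test in place of 5, where Cer1 had no adjusted p. The unfiltered line comparison gave very small p-values for Lefty1 (edgeR adjusted p = 1.05e-27). The cause was not tested for any of these.

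With single samples left out the counts ran from 4 to 6 (FS against AF), 1 to 3 (FS against AFX), 0 to 7 (AFX against AF), 0 to 0 (FS lines), 0 to 1 (E5.5 against E5.0), 0 to 1 (E6.0 against E5.5), 1 to 3 (E6.0 against E5.0), 5 to 6 (FS against E5.5), 2 to 4 (AF against E6.0) and 4 to 6 (AFX against E6.0). Signs turned for Nodal in FS against AFX (0.33 with FS line 1 alone, and -0.93 to 1.53 with samples left out), and, with samples left out, for Lefty1 (-3.94 to 2.68) and Lefty2 (-4.04 to 1.61) in the same comparison, Lefty1 in E5.5 against E5.0 (-1.46 to 0.49) and Lefty1 in AFX against E6.0 (-5.27 to 1.25). Of 807 alternatives to the 60 larger or called differences, 708 kept direction and side of the threshold, 55 lost a call, 37 gained one and 7 changed sign. Of 481 alternatives to the 37 smaller ones (log2 -0.34 to 0.35), 29 changed sign and 1 gained a call. Of 120 group levels under another scaling, 10 moved by over 1 SD, all with plain totals.

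AF and AFX share passage numbers and the stages share embryo numbers, and the labels do not say whether these numbers pair samples. Same-numbered samples did not deviate together in every pair (correlation -0.125 to 0.196 over 3 pairs of AFX and AF, -0.0477 to 0.102 over 7 pairs of epiblasts). With so few samples per group this cannot decide whether samples were paired, and the main fits use no pairing. With a replicate block E6.0 against E5.5 gave 3 members in place of 1, E6.0 against E5.0 gave 0 in place of 2, and Lefty1 in E5.5 against E5.0 was at 0.56 in place of -0.97. In AFX against AF the block gave 0 members higher and 3 lower in AFX, in place of 2 and 1: Nodal (-3.17, edgeR adjusted p = 0.0213), Cer1 (-3.97, 0.0121) and Tdgf1 (-3.78, 0.0096) passed, and Acvr1b (0.61, 0.111) and Foxh1 (0.60, 0.0932) did not. All genes past the threshold numbered 907 with the block in place of 1401 for AFX against AF, 70 in place of 971 for E5.5 against E5.0, 1607 in place of 631 for E6.0 against E5.5 and 1372 in place of 3100 for E6.0 against E5.0.

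Other counts over all genes that moved past 1.5 times, as lowest to highest over the alternatives, were 820 to 2068 against 1397 (FS against AFX), 732 to 1963 against 1401 (AFX against AF), 316 to 1298 against 618 (FS lines), 371 to 1659 against 971 (E5.5 against E5.0, beside the block) and 238 to 1607 against 631 (E6.0 against E5.5). With E6.0 embryo 2 left out, E6.0 against E5.0 gave 1905. Depth limits Cer1 in epiblasts and FS, where 3 counts are 0.171 to 0.589 CPM, and the Lefty genes in FS line 2.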
